A study of Mus musculus with 12 samples.

Results

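Lung epithelial lineage transcription factors are the DNA-binding proteins that set and hold the identity of airway and alveolar epithelium. A list of 10 such genes was taken by name: Nkx2-1, Foxa1, Foxa2, Foxp1, Foxp2, Gata6, Elf3, Cebpa, Etv5 and Grhl2. Their symbols were matched to Ensembl gene identifiers, and 9 of the 10 were found among the 30399 genes of the deposited table. Elf3 was not analysed here. All 9 passed the filter on low values, so each had a value in every sample and a place in the test across all genes.

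The samples were 5 normal mouse lungs and 7 mouse tumors. The series title places the tumors in lung cancer models generated with CRISPR/Cas9, an RNA-guided nuclease, delivered without a virus. The labels give tissue as the only difference between the groups. They give no strain, age, time after treatment or edited gene for any sample, and do not say whether the normal lungs received any reagent or whether samples came from separate animals. If some did not, the p-values measure only the spread between these samples. Titles hold a number that is 159 for tumors 3 and 4 and 201 for tumors 5, 6 and 7, so the 7 tumors carry 4 numbers. The titles of tumors 1 and 7 hold the Spanish word for trachea, and those of tumors 3 to 6 and of normal lung 5 the word for lung.

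NKX2-1 is a homeodomain protein needed to form the lung and to keep its epithelium, and it switches on surfactant and secretory genes. FOXA1 and FOXA2 are forkhead pioneer factors that open chromatin of endoderm-derived organs and act beside NKX2-1. FOXP1, FOXP2, GATA6, C/EBPα, ETV5 and GRHL2 work further along, in airway or alveolar differentiation and in epithelial cell contacts. In the lung NKX2-1, FOXA1 and FOXA2 are present in neuroendocrine cells as well as in alveolar and secretory cells.

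Normal lungs carried lung markers, and the label of the tumors names no cell type. Summed normalized counts of 7 alveolar type 2 markers ran from 191263 to 260328 in normal lungs and from 744 to 3158 in tumors. Summed counts of 8 neuroendocrine markers were at most 212 in any normal lung and from 26935 to 114778 in tumors. Depth was 11126432 to 17032234 reads assigned to genes in normal lungs and 13093843 to 24217633 in tumors. Every member lay above the worth of 3 reads (at most 4.85 normalized counts) in all 12 libraries. Tumor 7 stood apart in its other tissue markers. Its 6 heart muscle markers summed to 34202, against 135 to 2243 in the other tumors and 189 to 3632 in normal lungs. Its 9 leukocyte markers summed to 14034, against 450.1 to 3725 in the other tumors. Y-linked genes were present in 4 of 5 normal lungs and in tumor 1, and at or near 0 in the rest. The Y-linked level thus went largely with tissue, so differences of sex and of tissue cannot be fully told apart.

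The regulatory sequence just before the start of 5 members is shown: Nkx2-1, Foxa1 and Foxa2, which lead the lineage, and Cebpa and Etv5, the members that fell furthest. Foxp1 is not printed, and Foxp2, Gata6 and Grhl2 are named only. Each line gives the 250 bases before a RefSeq start on build GRCm38.p6, 5′ to 3′ on the strand of the gene. Where a gene has several starts, the most upstream one is printed. Capitals mark matches to motif letters searched on both strands: TGTTTAC for forkhead proteins, CAAGTG for NK2 homeodomain proteins, AGATAA for GATA proteins, GGAAGT for ETS proteins and TTGCNNAA for C/EBP proteins.
Nkx2-1, chr12:56536909-56537158, minus strand: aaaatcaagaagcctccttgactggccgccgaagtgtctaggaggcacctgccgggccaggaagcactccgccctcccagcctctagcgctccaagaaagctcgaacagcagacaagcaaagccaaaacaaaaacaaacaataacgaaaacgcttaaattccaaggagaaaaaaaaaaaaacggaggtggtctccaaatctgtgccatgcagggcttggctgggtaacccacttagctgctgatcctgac
Foxa1, chr12:57546112-57546361, minus strand: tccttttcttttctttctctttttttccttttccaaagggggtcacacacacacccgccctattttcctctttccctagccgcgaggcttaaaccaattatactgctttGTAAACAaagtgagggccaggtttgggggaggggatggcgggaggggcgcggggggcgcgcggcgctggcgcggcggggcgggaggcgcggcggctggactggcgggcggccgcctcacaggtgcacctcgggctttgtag
Foxa2, chr2:148046970-148047219, minus strand: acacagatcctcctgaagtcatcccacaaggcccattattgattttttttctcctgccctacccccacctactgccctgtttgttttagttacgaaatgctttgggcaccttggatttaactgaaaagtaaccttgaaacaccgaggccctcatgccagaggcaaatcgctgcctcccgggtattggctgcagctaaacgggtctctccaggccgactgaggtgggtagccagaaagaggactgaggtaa
Cebpa, chr7:35119043-35119292, plus strand: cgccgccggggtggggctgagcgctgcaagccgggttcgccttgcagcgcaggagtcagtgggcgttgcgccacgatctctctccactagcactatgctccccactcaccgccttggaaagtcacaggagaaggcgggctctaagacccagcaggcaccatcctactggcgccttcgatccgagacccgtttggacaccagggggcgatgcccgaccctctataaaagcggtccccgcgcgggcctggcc
Etv5, chr16:22439571-22439820, minus strand: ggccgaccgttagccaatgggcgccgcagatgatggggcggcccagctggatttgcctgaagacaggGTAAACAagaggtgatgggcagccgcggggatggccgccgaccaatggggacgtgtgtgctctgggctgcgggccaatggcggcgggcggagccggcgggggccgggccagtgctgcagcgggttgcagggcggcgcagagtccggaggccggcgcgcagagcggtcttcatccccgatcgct
The forkhead letters, read on the opposite strand as GTAAACA, occurred once before Foxa1 (141 to 135 bases before the start) and once before this start of Etv5 (183 to 177 bases before it). They occurred in 3.17% of all 32851 windows of this length in the RefSeq table. None of the other motifs was found in these 5 windows. Other starts of the same genes held ETS letters (the second start of Etv5 and of Foxa2) and GATA letters (the third start of Foxa2). Among the starts of Foxp1, the second held C/EBP letters. CAAGTG occurred in 11.6% of all windows, AGATAA in 9.99%, GGAAGT in 19.7% and TTGCNNAA in 9.56%. A match is a run of letters and says nothing of binding.

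Foxa1 and Foxa2 were higher in tumors, Nkx2-1 was above normal lung in 6 of 7 tumors, and the factors of alveolar and epithelial differentiation other than Foxp1 were lower. The comparison used limma on log2(value + 1), where the value is a read count divided by a size factor of its library, called here a normalized count. A gene was called at an adjusted p under 0.05. Of the 9 members, 2 were called higher in tumor (Foxa1 and Foxa2), where 31.4% of all 23674 genes tested were. Lower calls numbered 5 (Cebpa, Etv5, Grhl2, Foxp2 and Gata6), where 30.1% of all genes were. Nkx2-1 and Foxp1 were not called. With 7 of 9 members called against 61.5% of all genes, changes of this kind were common throughout the table. In 4 of the 9 (Foxp2, Gata6, Cebpa and Etv5) every tumor lay below every normal lung, where 18.4% of all genes did so. For 0 members did all tumors lie above, where 20.1% of genes did, and 38.4% of genes had groups that did not overlap in either direction. The share of all genes called was 64.5% without tumor 7, 63.8% without both trachea-titled tumors, 61.2% in edgeR and 58.3% in DESeq2, both of which left out tumor 3. With the Y-linked level in the fit 11632 of 23674 genes were called, against 14554 in the main fit. The median log2 fold change was -1.75 over the members and 0.04 over all genes tested. These are whole-tissue values, so fewer cells of a type and less RNA per cell cannot be told apart.

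**Figure D1:**
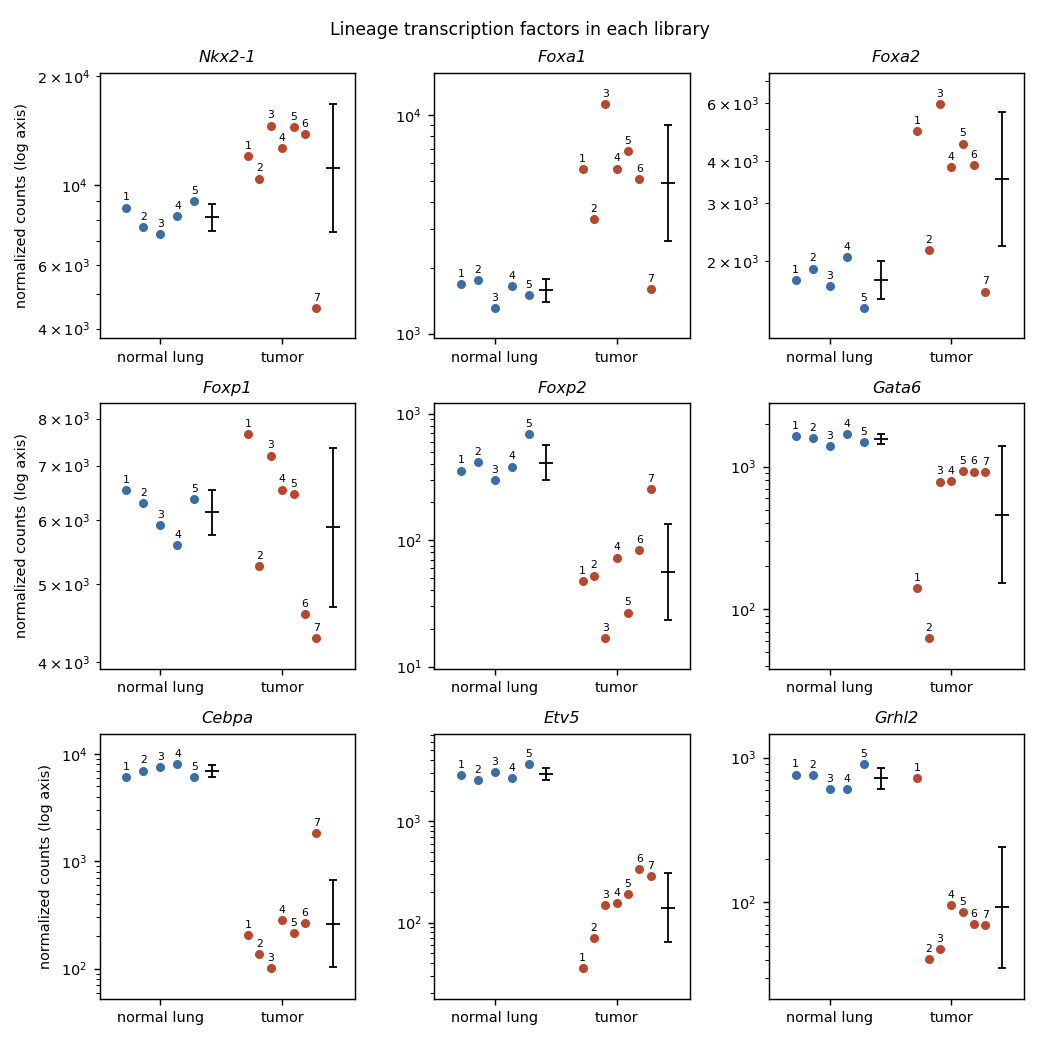
Normalized counts (log axis) of the 9 members in each library. Blue points are normal lungs 1 to 5 and red points tumors 1 to 7, numbered, and the black mark and bar give the mean and SD taken on the log2 scale. Cebpa and Etv5 lie far below normal lung in all 7 tumors, and tumor 7 has the lowest Nkx2-1, Foxa1 and Foxa2 of the tumors.

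Nkx2-1 (ENSMUSG00000001496) was among the most abundant members in both tissues. Normal lungs 1 to 5 had 8645, 7645, 7307, 8203 and 9000.4 normalized counts. Tumors 1 to 7 had 11997, 10405, 14594, 12660.1, 14472, 13794 and 4566. Tumors 1 to 6 all lay above the highest normal lung, and tumor 7 lay below the lowest. The mean ± SD was 8160.0 ± 696 over 5 normal lungs and 11784 ± 3511 over 7 tumors. On the log2 scale tumors differed by 0.45 (SE 0.25, 95% interval -0.09 to 0.99), and the limma adjusted p of 0.133 missed the threshold. Without tumor 7 Nkx2-1 was called higher, with a difference of 0.66 and a limma adjusted p of 3.33e-04. The call was also gained without both trachea-titled tumors (0.69), with quantile normalization (0.92), with equal library totals (0.66) and with same-number tumors averaged (0.48). It was not gained with same-number tumors modelled as correlated (0.47, adjusted p = 0.196), nor in edgeR (adjusted p = 0.0794) or DESeq2 (adjusted p = 0.110).

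Foxa1 (ENSMUSG00000035451) showed the largest rise of the members. Its normalized counts were 1678, 1762, 1311, 1653 and 1504 for normal lungs 1 to 5. For tumors 1 to 7 they were 5667, 3325, 11239.8, 5687, 6825, 5070.2 and 1592. Of the tumors 6 were above every normal lung, with tumor 3 highest, and tumor 7 lay inside the normal range. The tumor mean of 5629 ± 3023 (SD, n = 7) was 3.56 times the normal mean of 1582 ± 178 (SD, n = 5). The rise was 1.63 on the log2 scale (SE 0.36, limma adjusted p = 0.00147).

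Foxa2 (ENSMUSG00000037025), the paralog of Foxa1 with an overlapping role in the lung, rose less. Normal lungs 1 to 5 held 1755, 1897, 1681, 2053 and 1444 normalized counts, and tumors 1 to 7 held 4931, 2161, 5975, 3842, 4527, 3891 and 1617. Again 6 tumors exceeded every normal lung, tumor 2 by little, and tumor 7 lay within their range. The means were 1766 ± 229 (SD, n = 5) and 3849 ± 1527 (SD, n = 7), a ratio of 2.18 and a log2 fold change of 1.01 (SE 0.28, limma adjusted p = 0.00726). Per kilobase of annotated exon, Foxa1 stood at 0.556 to 0.742 of Foxa2 within each normal lung. In tumors that ratio ran from 0.701 in tumor 7 to 1.34 in tumor 3, and 6 of 7 tumors lay above all normal lungs.

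Cebpa (ENSMUSG00000034957) encodes C/EBPα, a basic leucine zipper factor of alveolar type 2 cells that also acts in myeloid cells. Normal lungs 1 to 5 held 6069, 7007, 7576, 8028 and 6115 normalized counts, and tumors 1 to 7 held 207, 136, 101, 285, 214, 267 and 1822. Every tumor lay below every normal lung, and tumor 7 was the highest tumor by a wide margin. The mean went from 6959 ± 870.4 (SD, n = 5) to 433 ± 616 (SD, n = 7), 16.1-fold lower. Without tumor 7 the tumor mean was 202 ± 71.8 (SD, n = 6), 34.5-fold lower. On the log2 scale the difference was -4.72 (SE 0.53, limma adjusted p = 5.64e-06). Markers of both cell types that use it fell too: all 7 alveolar type 2 markers and all 9 leukocyte markers measured were called lower. Of all genes tested 30.1% were called lower. Summed leukocyte markers ran from 86064 to 165882 over normal lungs and from 450.1 to 14034 over tumors, with Cd3e at 0 in at least 1 tumor. Most of the normal sum was Lyz2 alone, at 78689 to 157579. In tumor 7 Adgre1 (462), Cd68 (1419), Mrc1 (939) and Cd3e (248) lay within their normal ranges. For 4 of the 9 markers all tumors, tumor 7 included, lay below all normal lungs. Their part in the fall of Cebpa was not tested.

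Etv5 (ENSMUSG00000013089), an ETS factor that acts downstream of fibroblast growth factor and Ras signals in type 2 cells, was lower to a similar degree. Normal lungs 1 to 5 held 2833, 2544, 3035, 2651 and 3643 normalized counts. Tumors 1 to 7 had 35.5, 70.3, 149.7, 155, 189, 336 and 288. The groups did not overlap, with tumor 1 lowest and tumor 6 highest among tumors. The mean fell from 2941 ± 435 (SD, n = 5) to 175 ± 108 (SD, n = 7), 16.8-fold lower. The log2 difference was -4.37 (SE 0.46, limma adjusted p = 2.74e-06). The 7 type 2 markers, whose summed levels are given above, fell in the same tumors, and their part in the fall of Etv5 was not tested.

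Gata6 (ENSMUSG00000005836) encodes a zinc finger factor of endoderm and of alveolar maturation, which heart and smooth muscle also express. Normal lungs 1 to 5 held 1643, 1583, 1391, 1691 and 1491 normalized counts. Tumors 1 to 7 held 142, 63.1, 785, 795, 931, 924 and 919.7. All tumors lay below normal lung, and tumors 1 and 2 lay far below the other 5, which were close together. Tumors 3 to 7 are those whose title number is shared with another tumor. Tumors differed by -1.75 on the log2 scale (SE 0.63, limma adjusted p = 0.0270). The call was lost without normal lung 1 (-1.73, adjusted p = 0.0503) or normal lung 4 (-1.72, adjusted p = 0.0527), and in edgeR on recovered reads, which left out tumor 3 (-1.23, adjusted p = 0.0736). In tumor 7 the heart muscle markers were the highest of all libraries, as given above, and the 8 mesenchyme and smooth muscle markers also summed highest there, to 33413. Those sums were 3745 to 21489 in the other tumors and 12886 to 29490 over normal lungs. Of the 8 markers, 4 were called lower, where 30.1% of all genes were. The part of these heart and mesenchyme markers in the Gata6 values was not tested.

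Grhl2 (ENSMUSG00000022286), a grainyhead factor that keeps epithelial junction genes on, split the tumors differently. Normal lungs 1 to 5 had 761, 758, 607, 602 and 899 normalized counts. Tumors 1 to 7 had 723, 40.5, 47.6, 95.2, 84.9, 70.8 and 69.2. Tumor 1 sat within the normal range and the other 6 tumors were below all normal lungs. On the log2 scale Grhl2 differed by -2.95 (SE 0.56, limma adjusted p = 4.67e-04) with all tumors and -3.44 without tumor 1. The change was smaller in size, but still called, when the Y-linked level entered the fit (-1.71) and in edgeR, which left out tumor 3 (-1.90). Summed Y-linked genes were 2536 in tumor 1 and at most 8.08 in the other tumors. Among tumors the Y-linked level and tumor 1 itself therefore cannot be told apart. DESeq2 returned no adjusted p for Grhl2.

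In tumor 1, where Grhl2 was in the normal range, several epithelial genes were also far above the other tumors, though not all. Cdh1, which encodes E-cadherin, stood at 4858 normalized counts in tumor 1, at 51.6 to 244 in the other 6 tumors and at 6378 to 8042 over normal lungs. Esrp1, a splicing factor of epithelial cells, had 3647 in tumor 1, 0 to 66.5 in the others and 552 to 785 in normal lungs. Cldn7, a tight junction claudin, had 1050.3 in tumor 1 and 16.9 to 65.6 in the others. Rab25, a small GTPase of epithelia, had 374 in tumor 1 and 19.8 to 35.0 in the others, and the ETS factor Ehf had 722 against 2.97 to 215. Epcam, a surface glycoprotein of epithelial cells, had 5610.3 in tumor 1, 193 to 799 in the others and 830.1 to 1436 in normal lungs, and it was not called (-0.69, SE 0.63, limma adjusted p = 0.359). Cldn4, another claudin, did not follow: it had 50.6 in tumor 1, 2.56 to 159 in the others and 278 to 396 over normal lungs. The 5 general epithelial markers summed to 15084 in tumor 1, 413 to 1665 in the other tumors and 9810.0 to 12069 in normal lungs. These genes were singled out after their values were seen, and 1 tumor allows no test.

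**Figure D2:**
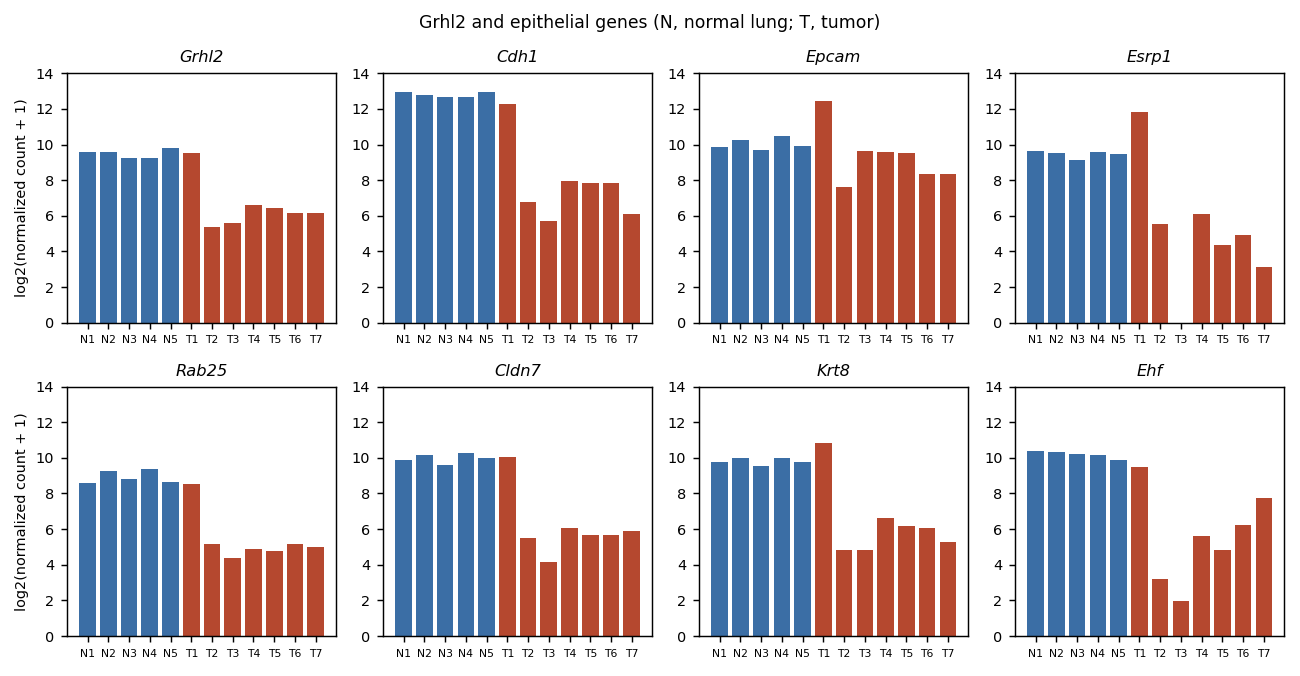
Log2(normalized count + 1) of Grhl2 and 7 epithelial genes in each library, with normal lungs in blue (N1 to N5) and tumors in red (T1 to T7). Tumor 1 stands at 9.50 for Grhl2, the height of normal lung, and the other tumors at 5.38 to 6.59.

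The forkhead P factors, which restrain alternative fates and act in airway and alveolar growth, went separate ways. For Foxp1 (ENSMUSG00000030067), normal lungs 1 to 5 held 6529.5, 6294, 5914, 5585 and 6365 normalized counts, and tumors 1 to 7 held 7657, 5257, 7199.8, 6537, 6448, 4592 and 4286. Tumors lay on both sides of the normal range. The difference was -0.06 on the log2 scale (SE 0.16, 95% interval -0.40 to 0.28, limma adjusted p = 0.749), and its sign changed with the scaling, to 0.14 with equal library totals and 0.20 with quantile normalization. Endothelium and lymphocytes also express Foxp1. The 8 endothelial markers were all called lower, where 30.1% of all genes were. They summed to 67831 to 78438 over normal lungs and 2568 to 7453 over tumors. Their part in the Foxp1 values was not tested.

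For Foxp2 (ENSMUSG00000029563), normal lungs 1 to 5 held 355, 413, 299, 381 and 689.8 normalized counts. Tumors 1 to 7 held 47.5, 52.4, 16.9, 72.7, 26.7, 83.6 and 254. All tumors lay below all normal lungs, tumor 7 only just. It fell by 2.84 on the log2 scale (SE 0.53, limma adjusted p = 3.89e-04), and the tumor mean of 79.1 ± 80.5 (SD, n = 7) was 5.41-fold below the normal mean of 427 ± 153 (SD, n = 5). Without tumor 7 the tumor mean was 49.96 ± 25.7 (SD, n = 6), 8.55-fold below.

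**Figure D3:**
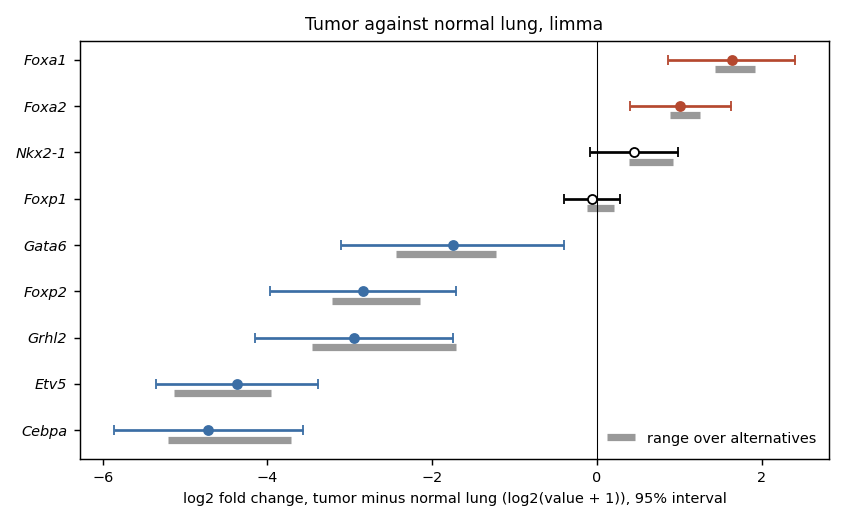
Log2 fold change of each member, tumor minus normal lung, with its 95% interval from limma. Red marks are called higher, blue called lower and open black not called, and grey bars give the range over the alternatives, which crosses 0 for Foxp1 alone.

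The order of the members by level changed between the tissues. Per kilobase of annotated exon, normal lung had Nkx2-1 at 2871 ± 245 and Cebpa at 2640.0 ± 330 normalized counts (SD, n = 5), whose ranges overlapped. Foxa2 (745 ± 96.7) and Etv5 (717 ± 106) followed with overlapping ranges, then Foxa1 (475 ± 53.4) and Foxp1 (446 ± 27.8), which also overlapped. Gata6 (240 ± 18.5), Grhl2 (84.2 ± 14.4) and Foxp2 (26.1 ± 9.33) closed the order, each clear of the one before. In tumors the medians per kilobase were 4455 for Nkx2-1, 1703 for Foxa1, 1642 for Foxa2, 469 for Foxp1, 122 for Gata6, 81.3 for Cebpa, 37.9 for Etv5, 8.22 for Grhl2 and 3.21 for Foxp2. Neighbours in the tumor order overlapped in range, apart from Foxa2 and Foxp1 and from Foxp1 and Gata6. Cebpa, whose range overlapped that of Nkx2-1 in normal lung, came after Gata6 in tumors. Among 29982 genes ranked per kilobase, the median rank of Nkx2-1 was 247 in normal lung and 61 in tumors, and that of Cebpa 242 and 9283. Foxa1 had median ranks of 2043 and 257, and Etv5 of 1239 and 11673.

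Within a library, Cebpa stood at 0.733 to 1.12 of Nkx2-1 per kilobase in normal lungs. That ratio was 0.00747 to 0.0242 in tumors 1 to 6 and 0.430 in tumor 7. The same ratio for Etv5 was 0.224 to 0.288 in normal lungs and 0.00205 to 0.0436 in tumors. In these ratios every tumor lay below every normal lung, tumor 7 included.

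The members varied more among tumors than among normal lungs. The SD of log2(value + 1) was larger over tumors for 9 of 9 members, as it was for 77.3% of all genes tested. Its median over the members was 1.13 in tumors and 0.18 in normal lungs, against 0.63 and 0.35 over all genes. Gata6 had the largest SD over tumors (1.59) and Foxp1 the smallest (0.32). The order of tumors differed by gene: tumor 3 had the highest Nkx2-1, Foxa1 and Foxa2 and the lowest Foxp2 and Cebpa, tumor 1 the highest Grhl2 and the lowest Etv5, and tumor 2 the lowest Gata6 and Grhl2. Tumor 7 shares its title number with tumors 5 and 6, yet had 4566 normalized counts of Nkx2-1 against their 14472 and 13794.

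**Figure D4:**
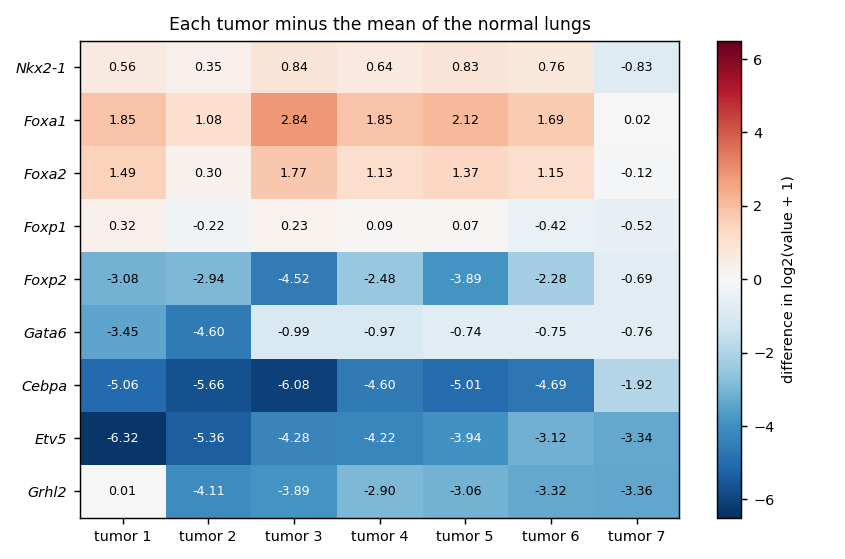
Difference in log2(value + 1) between each tumor and the mean of the 5 normal lungs, for the 9 members. Red cells are above normal lung and blue cells below. Tumor 7 has the smallest differences for Foxa1 (0.02), Foxp2 (-0.69) and Cebpa (-1.92), tumor 1 has a difference of 0.01 for Grhl2, and Gata6 differs by -3.45 and -4.60 in tumors 1 and 2 and by -0.99 to -0.74 in the rest.

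Genes annotated beside the members were compared next. Sfta3-ps, a noncoding transcript next to Nkx2-1 on the same strand, had normalized counts of 6472 to 11124 over normal lungs, 9303 to 26647 in tumors 1 to 6 and 4559 in tumor 7, again the lowest. The noncoding 9030622O22Rik beside Foxa2 had 399 to 758 in normal lungs and 552 to 2758 in tumors. Opposite-strand transcripts overlap Nkx2-1 (Gm26973), Gata6 (1010001N08Rik), Cebpa (Gm45091) and Grhl2 (Gm16136), and Gm20696 overlaps Foxp1 on its own strand. Whether counting used the strand is not given in the sources used here, so reads of the opposite-strand pairs cannot be told apart. Strand would not separate Foxp1 from Gm20696 in any case. The counts of those 5 members carry that uncertainty. The transcript opposite Gata6 was lowest in the same tumors as Gata6, at 28.5 in tumor 1 and 14.3 in tumor 2. It stood at 55.5 to 194 in tumors 3 to 6, at 753 in tumor 7 and at 525 to 952 over normal lungs.

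Nkx2-1 and Foxa1 lie on the same chromosome with 5 protein-coding genes annotated between them, of which 4 were analysed here. In that stretch Pax9, a paired-box factor of the foregut pouches, was called higher in tumor. Its mean normalized count was 13.1 over normal lungs and 988 over tumors, a log2 difference of 5.62 (SE 1.16, limma adjusted p = 8.92e-04). Tumors 3 and 4, which share a title number, had 3802 and 2167 counts of it and the other tumors 64.0 to 459. Mipol1 was called higher by 0.57, while Nkx2-9 (0.84) and Slc25a21 (1.68) were not called. Nkx2-4, Nkx2-2 and Pax1 lie beside Foxa2 and were called higher. Nkx2-4, an NK2 homeodomain paralog of Nkx2-1, was listed at 0 in all normal lungs and had 324 normalized counts in tumor 2, 0.633 in tumor 1 and 11.5 to 86.2 in the others. This stretch was looked at after the members' values were known.

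Paralogs of the members were called in both directions. Of 27 listed, 24 were tested, of which 5 were called higher and 12 lower, where 31.4% and 30.1% of all genes were. Their median log2 fold change was -0.96, against 0.04 over all genes. The 5 higher were Nkx2-4, Nkx2-2, Etv4, Foxp4 and Elf2. Etv4, an ETS factor of the same subfamily as Etv5, went from 14.5 ± 9.73 to 121 ± 59.4 (mean normalized count ± SD; log2 fold change 3.06, SE 0.53, limma adjusted p = 2.17e-04), the reverse of Etv5. Foxp4 went from 1829.8 ± 659 to 4437 ± 1810.1 (1.25, SE 0.29) and Elf2 from 2669 ± 153 to 4515 ± 749 (0.74, SE 0.13). The lowest were Elf5, an ETS factor of epithelia, from 586 ± 77.7 to 3.69 ± 3.85 (-7.47, SE 0.59), and Gata3, from 437 ± 69.2 to 16.4 ± 36.5 (-6.72, SE 0.96). Elf5 was at or under the worth of 3 reads in 3 tumors and Gata3 in 5, with Gata3 at 98.6 in tumor 7. The sizes of these falls are therefore uncertain. Gata4, a factor of heart and foregut, stood at 377 to 1582 in tumors 2 to 7, at 1.27 in tumor 1 and at 7.05 to 93.7 over normal lungs, and was not called (3.22, SE 1.37, adjusted p = 0.0555). Of the other C/EBP factors, Cebpb (-2.54), Cebpd (-2.31), Cebpe (-2.75) and Cebpg (-0.69) were all called lower, with Cebpa the furthest down. Cebpe was at or under the worth of 3 reads in 4 tumors.

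Genes known as targets of these factors in lung epithelium were lower almost throughout. Of 24, 23 were called lower and 0 higher by limma, where 30.1% and 31.4% of all genes were. Their median log2 fold change was -4.68, against 0.04 over all genes. The remaining gene, Epcam, was not called. At an unadjusted p under 0.05, 0 were higher. EdgeR called 0 higher and 20 lower of 24 tested, and DESeq2 0 higher and 20 lower of 20 given an adjusted p. Over all genes, lower calls numbered 4821 of 18308 in edgeR and 6055 of 23208 in DESeq2. With the Y-linked level in the fit, 20 of 24 targets were called lower and 0 higher. In that fit 5758 of 23674 genes were called lower. The surfactant gene Sftpa1 (-11.95, SE 1.21) and the type 2 phosphate transporter Slc34a2 (-11.80, SE 1.34) fell furthest. Scgb1a1, the secretoglobin of club cells, had the highest level of the list and went from 126212 ± 51598 to 239 ± 250.2 normalized counts. Dusp6 (-1.74, SE 0.44) and Spry2 (-1.57, SE 0.21), feedback inhibitors of the signals upstream of Etv5, moved least of the 23. Markers of type 2 cells, club cells and type 1 cells fell with this list, 7 of 7, 5 of 5 and 6 of 6, and some genes stand in both kinds of list. Their part in the fall of the targets was not tested. The type 2 genes Lpcat1 and Abca3 remained well above the floor, at 1367 to 2177 and 701 to 1402 normalized counts in tumors.

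Transcription factors of neighbouring organs and of other lung cell states were called in both directions too, to be read against 31.4% higher and 30.1% lower over all genes. Of 12 tested factors of foregut, stomach and liver, 4 were called higher and 5 lower. Onecut2 rose from 2.70 ± 3.30 to 1345 ± 198 normalized counts and Pax9 as above, and Gata5 was lowest (-5.73, SE 0.73). Cdx2 and Pdx1 were not analysed here. Of 16 tested factors of airway and alveolar states, 3 were called higher and 8 lower, and Sox2 was not analysed here. Sox9, a factor of the distal lung bud, rose by 3.27 (SE 0.89) and Myb, a factor of ciliogenesis and of dividing progenitors, by 2.03 (SE 0.41). Hopx, an alveolar type 1 factor, fell from 21344 ± 8099.6 to 148 ± 157 normalized counts (-7.80, SE 0.65). Sox9 was at 12.7 and 42.9 in tumors 1 and 2 and at 111 to 617 in tumors 3 to 7.

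Neuroendocrine transcription factors rose in the same tumors. Of 18 listed, 14 were tested, and Neurod1, Neurog3 and Sox1 were not analysed here. Of the 14, 13 were called higher and 0 lower by limma, where 31.4% and 30.1% of all genes were. At an unadjusted p under 0.05, 0 were lower. The remaining gene, Neurod2, was not called. In edgeR 10 of 10 tested were called higher and in DESeq2 13 of 14, and 0 were lower in each. Over all genes, higher calls numbered 6384 of 18308 in edgeR and 7485 of 23208 in DESeq2. With the Y-linked level in the fit, 11 of 14 neuroendocrine factors were called higher and 0 lower. In that fit 5874 of 23674 genes were called higher. The median log2 fold change was 7.21, or 7.0 with the 6 genes at or under the floor in every normal lung set at that floor. Insm1, a zinc finger factor of neuroendocrine cells, went from 20.8 ± 9.42 to 12339 ± 6427 normalized counts. Myt1 was at or under the worth of 3 reads in all 5 normal lungs and had 862 to 3099.8 in tumors, and Myt1l went from 4.84 ± 3.03 to 3707 ± 2026. Pou3f2 had at most 1.15 in normal lungs and 0 to 167 in tumors. Nhlh1 was at 0 in all 5 normal lungs and reached at most 6.74 in tumors. Tumor 7 had the lowest Insm1 and the lowest Nkx2-1 among the 7.

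The genes whose pattern over the 12 libraries lay closest to Nkx2-1 were Sun1, 2610301B20Rik, Immp1l, Ocrl and Tspan5. Their mean absolute differences from it were 0.131 to 0.175 log2 units, after each gene's own mean was removed. Sun1, a nuclear envelope protein, stood at 1194 to 1560.5 normalized counts over normal lungs, at 1858 to 2592 in tumors 1 to 6 and at 1145 in tumor 7. Foxa2 lay at 0.337 by the same measure, at rank 1600 of 16517 genes compared, Foxp1 at 0.362 and Foxa1 at 0.575, while Cebpa lay at 2.83.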

How the data were processed

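Poly-A selected RNA of 5 normal mouse lungs and 7 tumors was sequenced. The authors deposited 1 table of normalized count signal for 30399 Ensembl genes; per the submitters' processing notes featureCounts, DESeq2 and build GRCm39 were used, with versions, aligner, annotation and strand setting not given in the sources used here. Each deposited column held whole multiples of the worth of 1 read (tolerance 0.01), its inverse equal to a median-of-ratios size factor within a relative 6.76e-09, which gives the depth; tumor 3, whose step lies near 1, was kept out of count tests. Symbols for 29982 identifiers, exon lengths and neighbours came from GENCODE M21 on GRCm38, so no coordinates of genes are given; promoters came from RefSeq on GRCm38.p6, whose table gave 6 of the 9 members. All 25 pairs of same-group libraries differed by more than sampling noise (chi-square over its degrees of freedom at least 18.4).

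The test covered the 23674 genes whose mean reached 1, as log2(value + 1), in limma 3.58.1 (R 4.3.3; trend, Benjamini-Hochberg over all genes, two-sided). Fold changes on this scale understate low genes. Alternatives used edgeR 4.0.16 and DESeq2 1.42.0 on recovered reads of 11 libraries, other scalings, filters and pseudocounts, Y-linked level as a covariate, same-number tumors averaged or correlated, and samples left out. The fits were tested on simulated data. Figures used Python 3.11.15 and matplotlib 3.10.9.

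The members and lists were chosen with earlier results of these data known. Named were the members; of each list the 2 highest and 2 lowest called genes and the most abundant; 5 genes closest to Nkx2-1 with a mean log2 value of at least 4; and genes overlapping a member or starting within 10000 bases. Others named in the lists were chosen after their values were seen. Some genes that these rules name are not reported here.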

Additional observations from a re-analysis of the deposited data

Results flagged for a closer look

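Each member's log2 values were examined within normal lungs and within tumors, 18 groups in all, for a library standing apart from the others by Dixon's 95% limit. Of these, 3 stood apart, where chance gives about 1 in 20 groups (0.9 here). Tumor 7 had the lowest Nkx2-1 of the tumors, 12.16, with the next at 13.35 log2 units. Tumor 7 also had the highest Cebpa, 10.83, with the next at 8.16. Tumor 1 had the highest Grhl2, 9.50, with the next at 6.59. Tumor 7 carried the most heart muscle and leukocyte marker signal of the tumors, and tumor 1 the most general epithelial marker signal. Their part in these values was not tested.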

How the results depend on the processing

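No paired analysis was possible because the title numbers of normal lungs and tumors do not match and replicate numbers were given in order of listing. Over 23 alternatives the members called higher numbered 2 or 3 and those called lower 4 or 5. The main fit gave 2 and 5, where it called 31.4% of all genes higher and 30.1% lower. Leaving out 1 library at a time gave 2 to 3 higher and 4 to 5 lower. Foxa1, Foxa2, Foxp2, Cebpa, Etv5 and Grhl2 kept their direction and call wherever an adjusted p was given. Foxp1, never called, changed sign with quantile normalization (0.20), equal totals (0.14), the Y-linked covariate (0.12), and in edgeR (6.84e-04). Leaving out libraries in turn gave it -0.13 to 0.0139, the latter without tumor 7. The cause was not tested. Fits on recovered reads, without tumor 3, gave smaller decreases for Cebpa (-3.72 in edgeR) and Foxp2 (-2.15), the Y-linked covariate gave -5.14 for Etv5, and averaging same-number tumors gave -2.44 for Gata6. Equal totals moved the median of all genes from 0.04 to 0.24, and Nkx2-1 lay 0.41 above that median in the main scaling and 0.42 under equal totals. With quantile normalization Nkx2-1 lay 0.87 above the median of that setting. Less the median of its setting, Foxp1 was -0.10 in the main scaling, -0.09 under equal totals and -0.14 in edgeR. It was 0.15 with quantile normalization. Higher paralogs numbered 8 under equal totals and 8 in DESeq2, against 5. Over all genes, higher calls numbered 8617 of 23685 under equal totals, 7485 of 23208 in DESeq2 and 7430 of 23674 in the main fit. Higher foregut factors numbered 2 of 8 tested at a mean of at least 10, against 4, since fewer genes were tested. Under that filter 6095 of 18540 genes were called higher. Leaving out libraries in turn gave 5 to 6 higher paralogs and 4 to 5 higher foregut factors. Low genes such as Nkx2-4 and Nhlh1 rest on few reads in most libraries.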
